A study of Arabidopsis thaliana with 36 samples.

Results

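Messenger RNA in large polysomes was compared with messenger RNA in small polysomes at midday, 6 h after lights on (Zeitgeber time 6, ZT6), in wild-type Arabidopsis thaliana seedlings. The arrays were chosen by their titles: 3 of large polysomal and 3 of small polysomal RNA at 12pm, 6 of the 36 arrays of the series, paired by replicate number. All 36 arrays came from the aerial part of 10-day-old Columbia seedlings grown on agar with 1% sucrose in days of 16 h light and 8 h dark. They cover ZT0 (lights on), ZT6, ZT12 and ZT18 (dark), with a non-polysomal, a small and a large polysomal fraction and 3 replicates of each time and fraction. No group carried a mutation, transgene or drug treatment. The labels do not give the number of ribosomes per mRNA that separates small from large polysomes, nor say whether replicates were separately grown plants or how many seedlings each pooled. The p-values therefore measure the spread between these samples, which may be technical.

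A polysome is an mRNA with several ribosomes translating it at the same time. The number an mRNA carries depends on how often translation starts on it, how fast ribosomes move along it and how long its coding sequence is. In light-grown leaves the cytosolic ribosomes make most chloroplast proteins from nuclear genes, while chloroplasts and mitochondria translate their own few mRNAs on ribosomes of bacterial type.

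Each value is a log2 expression level on an array, normalised by the authors across arrays, so it is measured against the other mRNA of its fraction; 1 unit is a factor of 2. A positive difference means that a transcript formed a larger share of large than of small polysomal RNA. Fewer molecules of a transcript in the small fraction and more in the large cannot be told apart from this ratio, nor can fewer cells of a type from less RNA per cell. Over the 6846 genes tested, arrays of one fraction correlated at 0.977 to 0.988 and arrays of different fractions at 0.913 to 0.953. The leaf genes RCA (Rubisco activase) and LHCB4.1 (an antenna protein of photosystem II), 2 of 14 leaf markers and the only ones with a probe set of their own, had mean levels of 12.84 to 14.38 in small polysomal RNA. Of 13 root markers, 2 were bright enough to test: PYK10, a beta-glucosidase abundant in roots, at 10.51 ± 0.20 (SD, n = 3) and the jacalin-related lectin gene JAL33 at 8.51 ± 0.12 (SD, n = 3) in the small fraction. In the large fraction they were at 10.94 ± 0.23 and 9.16 ± 0.41. The differences, with the standard error of the limma fit, were 0.43 ± 0.20, which did not pass, and 0.65 ± 0.19, which did. PYK10 passed with median centring (adjusted p = 0.043), with cyclic loess (0.0204) and without replicate 1 (0.0476), all in limma. When replicate numbers were ignored the call of JAL33 ended (adjusted p = 0.0525, limma). Leaving out a replicate number ended the call of JAL33 (replicate 2 or 3).

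Between the fractions 3061 of 6846 genes (44.7%) differed, 1370 (20.0%) higher in large and 1691 (24.7%) lower. The limma fit keeps the fractions of one time and replicate number together (Benjamini-Hochberg adjusted p under 0.05 over all genes, 2-sided). A log2 difference over 1 was reached by 311 of them (4.54% of genes tested) on the large side and by 645 (9.42%) on the small side. The differences ran from -3.45 to 2.63, with a median of -0.02, quartiles of -0.49 and 0.38 and a median standard error (SE) of 0.20. The SE and p-value of a gene rest on a variance that limma estimated from all arrays, at all times and in all fractions. They do not measure the spread of the 3 ZT6 pairs alone, which can be smaller or larger. In 4732 genes (69.1%) all 3 pairs moved the same way, and in 3575 (52.2%) the 3 large and the 3 small values did not overlap, 1644 (24.0%) with large above small and 1931 (28.2%) with large below. Without pairing by replicate number 963 genes were higher and 1317 lower, and without replicate 3 the counts were 789 and 1234. Which side held more genes turned with the centring, since with each array centred on its median 1586 genes were higher and 1555 lower.

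**Figure D1:**
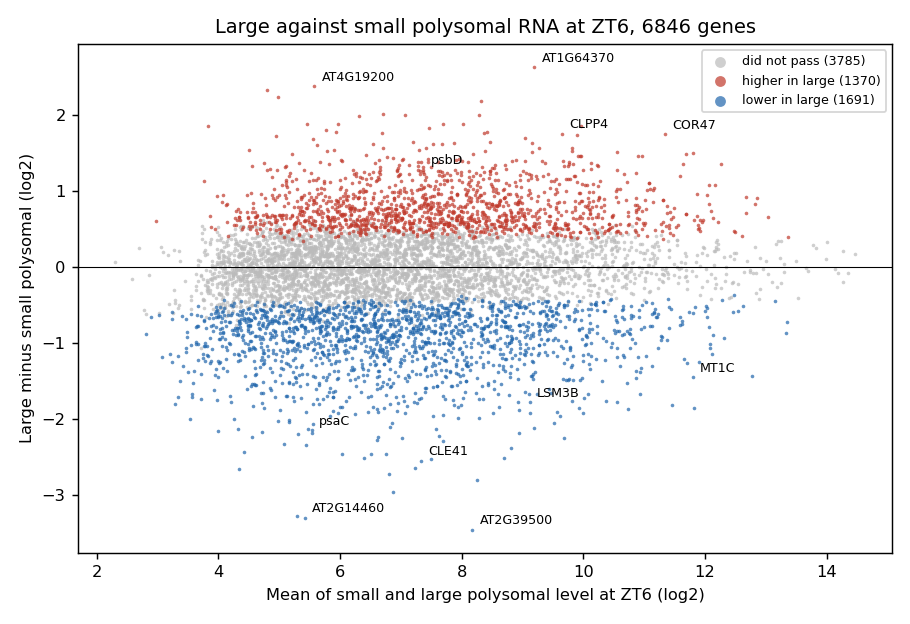
Large minus small polysomal difference (log2, vertical axis) against the mean of both levels (log2, horizontal axis) at ZT6 for each of the 6846 genes tested, each point the mean of 3 pairs. The 1370 genes higher in large polysomes and the 1691 lower lie across the range of levels, and the lower side reaches further, to -3.45 against 2.63.

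The strongest difference towards large polysomes belonged to AT1G64370, for which the tables hold no name. It read 7.91, 7.93 and 7.78 in small polysomal RNA of replicates 1, 2 and 3 and 10.55, 10.18 and 10.80 in large. Its mean difference over the 3 pairs was 2.63 ± 0.24 (log2, SE of the limma fit of all arrays, adjusted p = 9.97e-09). Its highest small value lay more than 2 units below its lowest large value, and in non-polysomal RNA it was lower still, at 4.99, 6.26 and 6.19. Other genes without a name followed: AT4G19200 at 2.38 ± 0.27, AT5G44380 at 2.33 ± 0.32, AT5G64110 at 2.24 ± 0.20 and AT1G04800 at 2.19 ± 0.21. AT4G12490 differed by 2.02 ± 0.22 and passed, but its fractions overlapped and its level varied between replicate numbers, at 5.41, 4.57 and 7.13 in small and 7.49, 6.63 and 9.04 in large. Without the pairing the call of AT4G12490 ended (adjusted p = 0.188, limma).

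CLPP4, CHLI2, PRXIIF and ISU1, which encode proteins of chloroplasts or mitochondria, were among the 12 genes with a symbol that had the largest difference towards large polysomes. CLPP4, a proteolytic subunit of the chloroplast Clp protease, read 8.99, 8.86 and 8.47 in small and 10.42, 10.28 and 10.90 in large polysomal RNA, with no overlap (1.76 ± 0.19, adjusted p = 7.88e-08). CHLI2, a subunit of the magnesium chelatase that commits porphyrin to chlorophyll, read 9.73, 9.83 and 9.83 against 11.40, 11.23 and 11.31 (1.52 ± 0.17), and its non-polysomal values of 9.72, 9.92 and 10.10 were close to the small ones. SECE1, a subunit of the thylakoid protein translocase that was named for its short span, differed by 1.39 ± 0.22. The mitochondrial peroxiredoxin gene PRXIIF differed by 1.64 ± 0.20, and ISU1, a scaffold for building iron-sulfur clusters in mitochondria, by 1.53 ± 0.20. Among these 5 genes, every large value exceeded every small one, as in 24.0% of all genes. They were named for the largest differences, of all genes or of a span bin, with 3 of 3 pairs the same way. The lack of overlap is therefore no separate evidence.

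All 4 tested members of the cold-regulated list were higher in large polysomes, against 20.0% of all genes tested, with a median of 1.50. COR47, a dehydrin that protects cells as they lose water, read 10.56, 10.37 and 10.47 in small and 12.34, 12.03 and 12.28 in large polysomal RNA (1.75 ± 0.19, adjusted p = 8.26e-08), and its non-polysomal values were lower than both, at 9.20, 9.06 and 9.35. COR15A and COR15B, which protect chloroplast membranes in freezing, differed by 1.50 ± 0.21 and 1.50 ± 0.21. LTI30, another dehydrin, differed by 1.35 ± 0.20. In all 4 every large value lay above every small one, as in 24.0% of all genes. The labels name no cold treatment.

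Among genes of cell division and chromatin, 3xHMG-box2, a protein that binds chromosomes in mitosis, differed by 1.74 ± 0.22. PRL, a subunit of the helicase that opens DNA for replication, read 6.98, 7.34 and 6.72 in small and 8.16, 8.34 and 8.18 in large (1.21 ± 0.17). Of 11 tested histone genes 7 were higher in large polysomes, 0 were lower and 4 did not reach the threshold, against 20.0% higher and 24.7% lower over all genes; the median was 0.52. The histone H2B gene HTB2 read 10.42, 10.84 and 10.51 against 11.58, 11.68 and 11.59, with no overlap (1.03 ± 0.20, adjusted p = 0.000167). The list's largest difference was that of AT1G06760 (1.36 ± 0.16). Histone genes are short, with a median span of 1002 bases here. The histone chaperone gene ASF1B, which hands histones to new chromatin, went the other way, at -1.90 ± 0.21. Near-identical genes such as the H2B genes, COR15A and COR15B, or LSM3A and LSM3B below, can share probe signal, which was not tested.

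**Figure D2:**
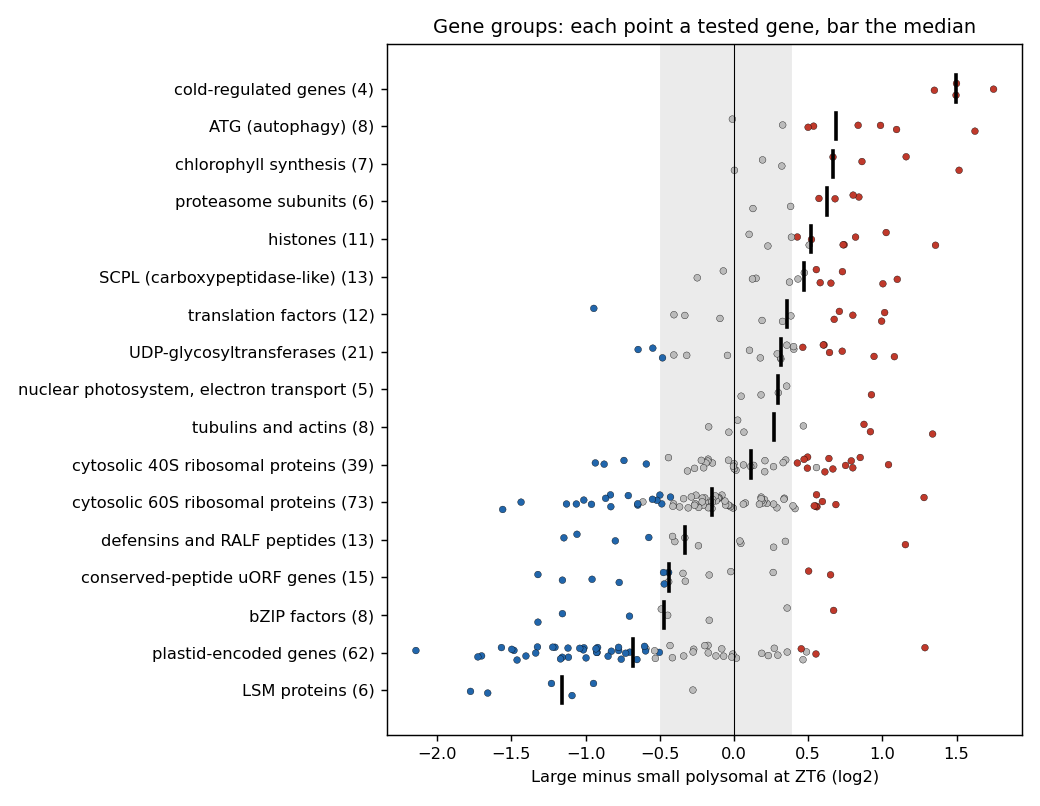
Large minus small polysomal difference at ZT6 (log2, horizontal axis) of each tested gene in 17 groups (number of genes in brackets), red for genes higher in large polysomes, blue for lower, grey for those that did not pass, with a bar at the group's median and the quartiles of all 6846 genes shaded. The cold-regulated genes lie furthest to the right, with a median of 1.50, and the LSM genes furthest to the left, with a median of -1.16.

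ATG8 proteins are small ubiquitin-like proteins that are fixed to the membrane of the autophagosome, and ATG3 is the enzyme that attaches them. Of 8 tested genes whose symbol starts with ATG, 6 were higher in large (20.0% of all genes were) and 0 lower, with a median of 0.69 (3 higher without replicate 2 or 3); this family and the other symbol families below were formed after the values had been seen. ATG8H read 7.05, 6.70 and 6.86 in small and 8.60, 8.39 and 8.48 in large polysomal RNA (1.62 ± 0.23, adjusted p = 2.93e-06), with no overlap. ATG3 differed by 1.10 ± 0.23, ATG8D by 0.99 ± 0.22, ATG8G by 0.84 ± 0.26, ATG8E by 0.54 ± 0.20 and ATG8F by 0.50 ± 0.17. ATG8B at 0.33 ± 0.18 and ATG8C at -0.01 ± 0.17 did not pass. In the unpaired fit the call of ATG8E ended (adjusted p = 0.167, limma). The calls of ATG8G (replicate 2 or 3), ATG8E (replicate 2 or 3) and ATG8F (replicate 2 or 3) ended when that replicate number was left out.

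The counts in the next groups stand against 20.0% higher and 24.7% lower over all genes. Of 6 tested proteasome subunits 4 were higher in large polysomes and 0 lower (median 0.63; 2 higher without replicate 3), among them RPN12a of the regulatory particle at 0.84 ± 0.16. Ubiquitin-conjugating enzymes gave 3 of 10 higher and 0 lower, with a median of -0.12, and UBC29 had the largest difference, at 1.09 ± 0.21. Without replicate 2 that list had 1 higher and 1 lower, and without replicate 3 it had 1 higher. Serine carboxypeptidase-like genes (symbols with SCPL) gave 6 of 13 higher and 0 lower, with a median of 0.47 (3 higher without replicate 3). The subtilase gene ATSBT5.2 differed by 1.70 ± 0.23 and another, SBT3.12, by -1.91 ± 0.27; each was among the 12 largest differences of its side. In the cytoskeleton list 3 of 8 tubulin and actin genes were higher and 0 lower. The beta-tubulin gene TUB7 read 9.13, 8.93 and 8.97 against 10.31, 10.31 and 10.41 (1.34 ± 0.16), ACT11 differed by 0.92 ± 0.15 and TUB1 by 0.88 ± 0.24, whereas TUB6 at -0.04 ± 0.20 and the alpha-tubulin gene TUA6 at -0.17 ± 0.27 did not pass. Without the pairing the call of TUB1 ended (adjusted p = 0.0947, limma). Leaving out a replicate number ended the call of TUB1 (replicate 2 or 3).

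VPS genes in this set belong to the ESCRT machinery, which bends and cuts membrane into endosomes. Of 8 tested, 3 were higher in large polysomes and 1 lower (20.0% and 24.7% of all genes), with 0 lower without replicate 1 or 3: VPS2.1 read 9.42, 9.40 and 8.99 in small and 10.59, 10.41 and 10.39 in large (1.20 ± 0.18), VPS24.1 differed by 1.04 ± 0.24, VPS2.2 by 0.78 ± 0.21 and VPS22 by -0.54 ± 0.17. PRA1 proteins are small membrane proteins that bind Rab GTPases. Of 5 tested, 3 were lower in large and 0 higher, with a median of -0.96. All were dim, with means of 4.17 to 5.54 in small and 3.17 to 4.58 in large polysomal RNA. With the filter of 4 taken over the 6 ZT6 polysomal arrays, 4 were tested and 2 were lower, with a median of -0.59. PRA1.E read 4.11, 4.16 and 4.69 in small and 3.17, 3.15 and 3.20 in large (-1.15 ± 0.22), PRA7 differed by -1.03 ± 0.23 and PRA8 by -0.96 ± 0.23, while PRA1.B6 at -0.18 ± 0.24 and PRA1.H at -0.22 ± 0.15 did not pass. The calls of VPS2.2 (replicate 3), VPS22 (replicate 1 or 3) and PRA7 (replicate 3) ended when that replicate number was left out.

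Nuclear genes of photosynthesis were few on the tested list, and most that passed were enzymes of chlorophyll synthesis. Of 7 such enzymes 4 were higher in large polysomes, against 20.0% of all genes, and 0 lower (median 0.67): CHLI2, HEMB1, which makes porphobilinogen, at 1.16 ± 0.18, PORB, which reduces protochlorophyllide in light, at 0.86 ± 0.19, and GSA1, which makes the common precursor 5-aminolevulinate, at 0.67 ± 0.22. HEME1 (0.00 ± 0.20), HEME2 (0.32 ± 0.22) and CHLM (0.19 ± 0.19) did not pass. Of 5 photosystem and electron transport genes 1 passed, PSBY of photosystem II at 0.93 ± 0.18; 2 passed without replicate 1 or with median centring and 4 with cyclic loess. Of 3 antenna genes for the protein CP29 1 passed, LHCB4.3 at 0.98 ± 0.19, with LHCB4.1 at -0.07 ± 0.15 and LHCB4.2 at -0.05 ± 0.19. Of 4 Calvin-Benson cycle genes 1 passed, SBPASE at 0.41 ± 0.16 (0 without the pairing, 2 with median centring or cyclic loess), and of 5 photorespiration genes 0 did (1 with cyclic loess). RCA, among the brightest genes, read 13.23, 12.61 and 12.68 in small and 13.20, 12.81 and 12.87 in large, with overlap. In a fit without pairing the calls of GSA1 and SBPASE ended (adjusted p = 0.0794 to 0.136, limma). Leaving out a replicate number ended the calls of GSA1 (replicate 1, 2 or 3) and SBPASE (replicate 1, 2 or 3).

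On the small side the largest difference was that of AT2G39500, again without a name in the tables. It read 9.73, 9.96 and 10.01 in small polysomal RNA and 6.05, 7.07 and 6.23 in large (-3.45 ± 0.25, adjusted p = 8e-10), while its non-polysomal values of 9.63, 10.47 and 10.10 were near the small ones. AT2G14460 at -3.29 ± 0.34, AT5G21020 at -3.27 ± 0.44 and AT3G09470 at -2.96 ± 0.25 came next. The strongest with a symbol was CLE41, which encodes the secreted peptide that keeps vascular stem cells dividing. It read 7.92, 8.72 and 9.14 in small and 5.44, 6.73 and 5.98 in large (-2.54 ± 0.26, adjusted p = 4.46e-08), with no overlap.

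**Figure D3:**
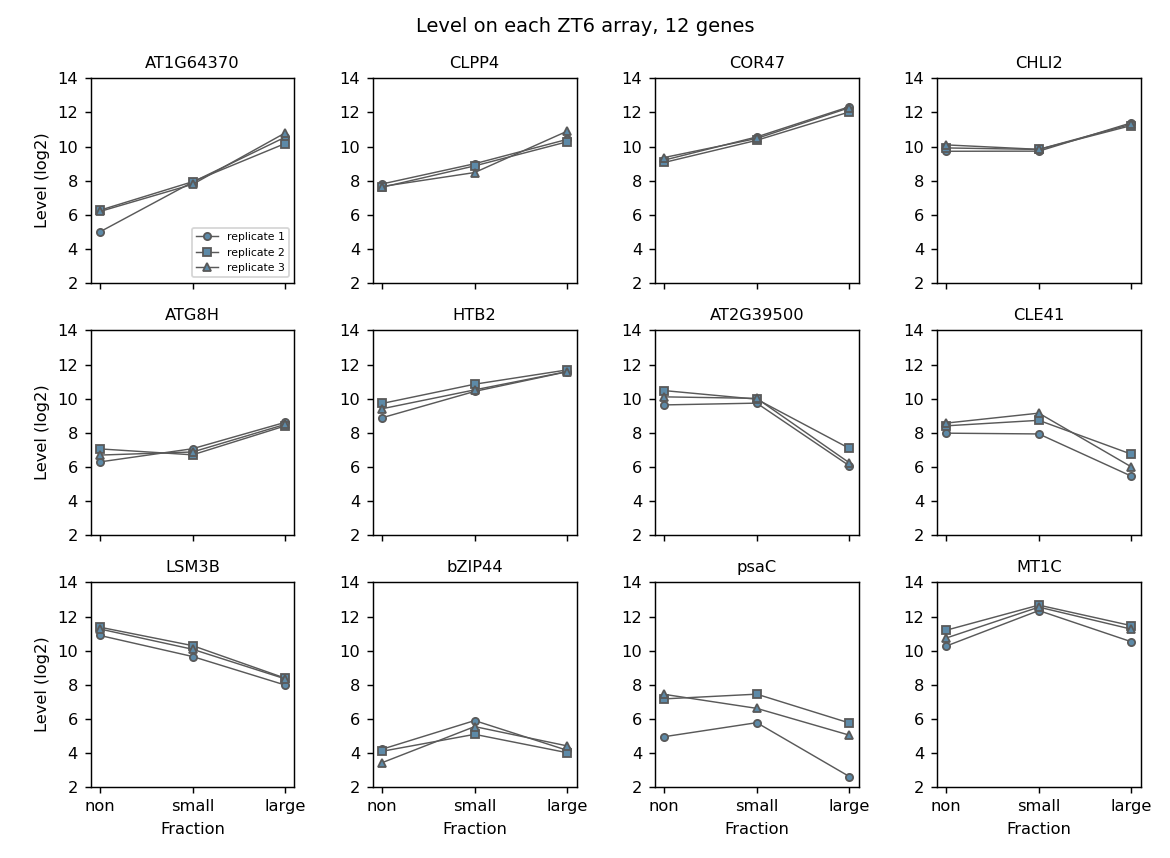
Level (log2, vertical axis) of 12 genes on each of the 9 arrays of ZT6, with lines that join the non-polysomal, small and large polysomal fractions of one replicate number. AT1G64370, CLPP4, COR47, CHLI2, ATG8H and HTB2 are higher in every large than in every small polysomal array, and AT2G39500, CLE41, LSM3B, bZIP44, psaC and MT1C are lower.

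LSM proteins form the rings that bind the ends of decaying mRNA or the U6 splicing RNA. Of 6 tested LSM genes 5 were lower in large polysomes (24.7% of all genes were) and 0 higher (20.0%), with a median of -1.16. LSM3B read 9.65, 10.29 and 10.08 in small and 7.97, 8.38 and 8.34 in large (-1.78 ± 0.17, adjusted p = 1.77e-08), and its non-polysomal values were higher than both, at 10.89, 11.37 and 11.27. LSM3A differed by -1.66 ± 0.18, LSM6B by -1.23 ± 0.28, LSM6A by -1.09 ± 0.20 and LSM1A by -0.95 ± 0.17, while LSM1B at -0.28 ± 0.17 did not pass. SAMBA, a regulator of the anaphase-promoting complex, differed by -1.94 ± 0.21, the B3-domain transcription factor NGA1 by -1.84 ± 0.22 and the telomere-capping gene STN1 by -1.63 ± 0.22. MT1C, a metallothionein gene with a span of 702 bases, was bright in both fractions, at 12.35, 12.67 and 12.55 in small and 10.52, 11.46 and 11.26 in large (-1.45 ± 0.25).

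Genes with a conserved-peptide upstream open reading frame carry a short coding sequence ahead of the main one, and in several of them the encoded peptide stalls ribosomes. Of 15 tested members 7 were lower in large polysomes and 2 higher, with a median of -0.44, against 24.7% lower and 20.0% higher over all genes; without the pairing 4 were lower and 1 higher. The lower count was 3 without replicate 1 and 4 without replicate 3, and the higher count 0 without replicate 3 and 1 without replicate 2. The strongest were the basic leucine zipper genes bZIP44 and BZIP53, transcription factors whose upstream peptide represses translation when sucrose is abundant. bZIP44 read 5.89, 5.08 and 5.54 in small and 4.14, 4.00 and 4.40 in large (-1.32 ± 0.28, adjusted p = 0.000381), and its non-polysomal values, at 4.21, 4.09 and 3.41, were also below the small ones. BZIP53 read 10.19, 10.59 and 10.94 against 9.11, 9.60 and 9.54 (-1.16 ± 0.18), with no overlap. The list member AT3G25570 differed by -0.96 ± 0.27, lower in 2 of 3 pairs. Higher in large were PMEAMT, a methyltransferase of phosphocholine synthesis, at 0.50 ± 0.19 and AT1G73600 at 0.65 ± 0.19. Among all 8 bZIP factors tested 3 were lower, with BZIP24 (-0.70 ± 0.28) beside these, and 1 was higher, BZIP17, a membrane-bound factor of the stress response, at 0.67 ± 0.26 (0 higher without the pairing). Without the pairing the calls of PMEAMT, BZIP24 and BZIP17 ended (adjusted p = 0.0588 to 0.0967, limma). The calls of AT3G25570 (replicate 1 or 3), PMEAMT (replicate 2 or 3), AT1G73600 (replicate 3), BZIP24 (replicate 1, 2 or 3) and BZIP17 (replicate 1 or 2) ended when that replicate number was left out.

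Of 112 tested genes on a list of cytosolic ribosomal proteins 19 were higher in large polysomes (17.0%) and 21 lower (18.8%), against 20.0% and 24.7% of all genes, with a median of -0.10 that turned to 0.04 with cyclic loess. The higher count was 9 without replicate 2 and 11 without replicate 3, and the lower count 12 without replicate 1 and 10 without replicate 3. The list was written by AGI code after the files had been seen, and the gene table does not name its members as ribosomal proteins, so membership was not checked against it. Its 39 genes listed for the small ribosomal subunit had 12 higher and 4 lower, with a median of 0.11. Its 73 genes listed for the large subunit had 7 higher and 17 lower, with a median of -0.15. This lean depended on the normalisation. With cyclic loess the large subunit had 12 higher and 13 lower, with a median of -0.01, and with median centring 8 and 14. The small subunit had 14 higher and 4 lower with cyclic loess, with a median of 0.22. The difference between subunits was not tested. Without replicate 2 the higher counts were 5 and 4 for the small and the large subunit, and without replicate 3 they were 7 and 4. The lower count of the large subunit was 9 without replicate 1 and 7 without replicate 3. The extremes were AT3G02190 at -1.56 ± 0.26, AT3G06680 at -1.44 ± 0.17, AT3G11250 at 1.28 ± 0.18 and AT3G04840 at 1.04 ± 0.18. Of 12 translation factors 5 were higher and 1 lower (median 0.35; 2 higher without replicate 3). EIF4A-2, a helicase that unwinds the start of mRNAs, read 8.83, 8.82 and 8.93 against 9.66, 9.68 and 10.22 (0.99 ± 0.15), and AT4G27130 on the same list differed by -0.94 ± 0.16.

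Transcripts encoded in the chloroplast genome read lower in large than in small polysomal RNA in 35 of 62 tested genes and higher in 3, against 24.7% and 20.0% of all genes, with a median of -0.68. These calls rest on the pairing: the mean over these genes varied between replicates, at 8.99 ± 0.52 in small and 8.38 ± 0.72 in large polysomal RNA (SD, n = 3), and without the replicate block 1 gene was lower and 0 higher (10 and 0 with a random block). The higher count was 1 without replicate 2 or without replicate 3. psaC, the iron-sulfur subunit of photosystem I, read 5.77, 7.44 and 6.61 in small and 2.60, 5.75 and 5.03 in large (-2.14 ± 0.34, adjusted p = 1.65e-05). psbE of cytochrome b559 differed by -1.73 ± 0.32. petG of the cytochrome b6f complex differed by -1.70 ± 0.37, with a large polysomal mean of 2.48 ± 0.12 near the lower end of the scale. Most genes of the chloroplast NADH dehydrogenase-like complex went the same way, with 6 of 8 lower (0 without the block); ndhG at -0.42 ± 0.29 and ndhC at -0.34 ± 0.17 did not pass. Higher in large were psbD, the D2 protein of photosystem II, psaB, a core protein of photosystem I, and rps2. psbD read 6.05, 7.59 and 6.55 in small and 6.78, 8.70 and 8.56 in large, higher in 3 of 3 pairs but with overlapping fractions (1.29 ± 0.27); psaB differed by 0.55 ± 0.21 and rps2, higher in 2 of 3 pairs, by 0.45 ± 0.18. In a fit without pairing the calls of psaC, psbE, petG, psbD, psaB and rps2 ended (adjusted p = 0.169 to 0.787, limma). Leaving out a replicate number ended the calls of psaB (replicate 1, 2 or 3) and rps2 (replicate 2 or 3).

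The added polyadenylated control transcripts moved the same way as the plastid genes. Their mean over 27 probe sets was 4.73 ± 0.18 (SD, n = 3) in small and 3.90 ± 0.12 in large polysomal RNA, lower in 3 of 3 pairs with a difference of -0.84 ± 0.29. The mean over the plastid-encoded genes differed by -0.61 ± 0.26, and that of 18 hybridisation controls by -0.18 ± 0.26. The 3 prime minus 5 prime difference of the GAPDH probe sets was 3.61 ± 0.22 in small and 3.13 ± 0.18 in large, lower in 3 of 3 pairs. For actin it was 8.34 ± 0.47 and 8.17 ± 0.64, and its pairs were mixed, at 0.18, 0.40 and -1.10. These arrays were primed with oligo(dT), and plastid transcripts mostly lack a long poly(A) tail. What part these have in the plastid result was not tested. Of 6 mitochondrion-encoded genes 2 (33.3%) were lower and 0 higher, near the 24.7% lower and beside the 20.0% higher over all genes. The 2 were nad1 at -0.94 ± 0.31 and ccb452 at -0.82 ± 0.28. The unpaired fit had 0 lower. When replicate numbers were ignored the calls of nad1 and ccb452 ended (adjusted p = 0.0736 to 0.345, limma). The calls of nad1 (replicate 1, 2 or 3) and ccb452 (replicate 1 or 2) ended when that replicate number was left out.

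Of 21 UDP-glycosyltransferases 7 were higher in large polysomes and 3 lower, against 20.0% and 24.7% of all genes (median 0.32; 2 higher without the pairing, 4 without replicate 1, 3 without replicate 3; 1 lower without replicate 1 or 2), with UGT72E1 at 1.08 ± 0.20 and UGT71C5 at -0.65 ± 0.19. Glutathione S-transferases gave 3 of 6 higher, led by GSTU20 at 1.46 ± 0.30, and 1 lower, GSTU18 at -0.77 ± 0.15. Expansin and expansin-like genes gave 3 of 8 higher, among them the expansin-like gene EXLB1 at 0.92 ± 0.17. In the same list 2 were lower, EXPA21 at -0.74 ± 0.28 and EXPA20 at -0.59 ± 0.21, with a large polysomal mean of 2.95 ± 0.25 near the lower end of the scale. Without the pairing 0 genes of this list passed in either direction. The defensin and RALF peptide list gave 1 of 13 higher and 4 lower. That list was drawn by symbol and also took PDF1A and PDF1B, which encode peptide deformylases of the organelles and not defensins. PDF1B was its gene higher in large, at 1.15 ± 0.20, and PDF1A was lower, at -0.80 ± 0.17. Of the peptides themselves RALFL32 was lower at -1.15 ± 0.19 and PDF1.4 at -1.06 ± 0.24. Of 28 genes on the clock list 2 were tested, and both were higher in large. They were the clock-linked gene GI at 0.51 ± 0.18 and AT5G52660 at 0.85 ± 0.15, of which AT5G52660 alone passed without the pairing. In the unpaired fit the calls of EXLB1, EXPA21, EXPA20, PDF1.4 and GI ended (adjusted p = 0.056 to 0.135, limma). Leaving out a replicate number ended the calls of UGT71C5 (replicate 2), EXPA21 (replicate 1 or 3), EXPA20 (replicate 1 or 2) and GI (replicate 1, 2 or 3).

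The difference between fractions went weakly with the length of the gene. Coding lengths were not at hand, so the gene span was used, from first to last annotated base with introns included, in a gene table of assembly TAIR10.1. Of 384 nuclear genes with a span from 500 to under 1000 bases, 48 (12.5%) were higher in large and 181 (47.1%) lower, with a median of -0.46. Of 897 genes of 4000 bases or more, 188 (21.0%) were higher and 117 (13.0%) lower, with a median of 0.11. Between them the median was -0.08 from 1000 to under 2000 bases (2083 genes) and 0.01 from 2000 to under 4000 bases (3356 genes). The 41 genes under 500 bases, at -0.34 with 2 higher and 16 lower, did not extend this order. Across all 6761 nuclear genes Spearman's rho was 0.17 (Pearson's r 0.19 with log2 span), at 0.21, 0.08 and 0.17 in replicates 1, 2 and 3. These genes share the same 6 arrays and are not independent replicates.

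Single genes departed from this order. CML30, a calmodulin-like gene with a span of 647 bases, was higher in large by 1.65 ± 0.28, as was SECE1 with 855 bases. At the other end AT4G24450, with 7748 bases, was lower in large at -1.68 ± 0.23, and UBP25, a ubiquitin-specific protease gene with 4030 bases, at -1.18 ± 0.25. The longest gene that was higher in large was SPK1, which activates the ROP GTPases that shape cells, with a span of 13445 bases and a difference of 0.81 ± 0.20. Among long genes CFM3A, which splices chloroplast introns, was higher by 1.49 ± 0.33.

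**Figure D4:**
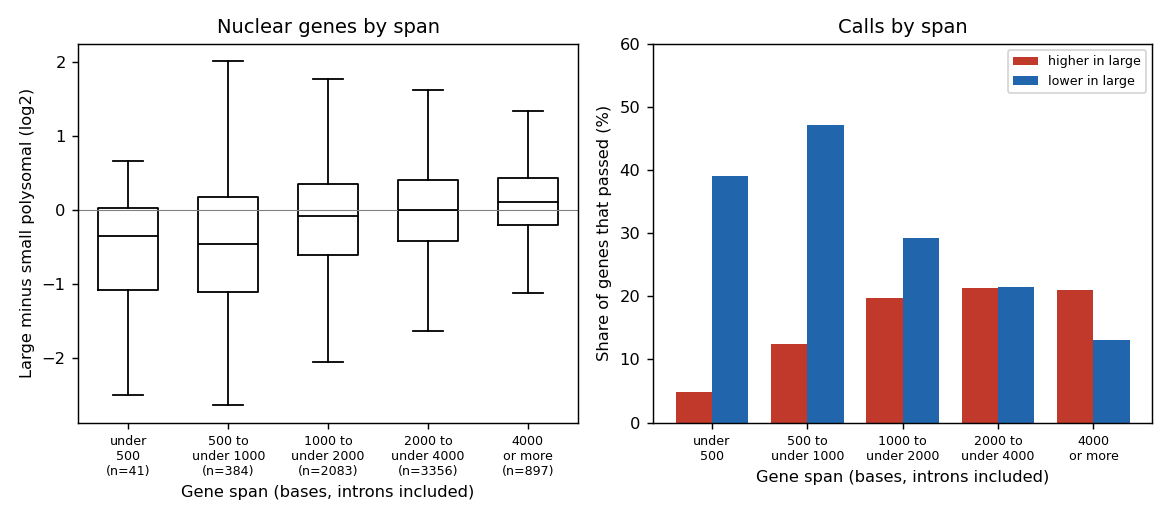
Left, large minus small polysomal difference at ZT6 (log2) of the 6761 nuclear genes in 5 bins of gene span, with the median, the quartiles and whiskers to the furthest gene within 1.5 times the interquartile range. Right, the share of each bin higher (red) or lower (blue) in large polysomes: from 500 to under 1000 bases 47.1% were lower, and from 4000 bases 13.0%.

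The midday difference largely recurred at the other times. Of the 1370 genes higher at ZT6, 1266 (92.4%) had a mean difference on the same side at ZT0, ZT12 and ZT18, against 37.0% of all genes tested. Of the 1691 lower, 1513 (89.5%) did, against 36.9%. Across the 6846 genes the ZT6 difference correlated with that of ZT12 at a Spearman's rho of 0.91, with ZT0 at 0.85 and with ZT18 at 0.77; the times share no arrays, though probe sets and gene lengths are common to them. COR47 differed by 1.54, 1.48 and 1.66 at ZT0, ZT12 and ZT18, and AT2G39500 by -2.92, -3.17 and -2.80. The 2 tested clock-list genes recurred less: GI differed by -0.10, 0.89 and -0.0045, and AT5G52660 by 0.325, 0.72 and 0.23. Their contrasts of ZT6 with the mean of the other times did not pass (adjusted p = 0.724 and 0.394, limma). The rank correlation with gene span was 0.12 at ZT0, 0.10 at ZT12 and 0.02 at ZT18, against 0.17 at ZT6; these were not tested against each other.

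A contrast of ZT6 against the mean of the other 3 times asked where midday stood apart. It called 2 genes (0.0292%), both higher at ZT6, and 0 lower, with 705 genes (10.3%) at an unadjusted p under 0.05. AT2G34080 differed between polysome fractions by -0.13 ± 0.23 at ZT6, with overlap, but by -2.08, -1.60 and -1.88 at the other times, a contrast of 1.72 ± 0.27 (adjusted p = 0.00456). Its ZT6 means were dim, at 3.99 in small and 3.86 in large polysomal RNA. Both lay under the filter level of 4, so a filter on the ZT6 polysomal arrays left this gene out. Whether its low level accounts for the small difference was not tested. AT1G17160 was higher in large by 0.76 ± 0.15 at ZT6 and differed by -0.48, 0.18 and -0.35 elsewhere, a contrast of 0.98 ± 0.18 (adjusted p = 0.0254). Neither call held without the replicate block, where the contrast called 0 genes, or without replicate 1 or 3, and that of AT1G17160 also ended without replicate 2 (adjusted p = 0.0598, limma). ATG8H had its largest difference at ZT6, against 0.97, 0.66 and 0.81, and PRL too, against 0.59, 0.81 and 0.31, but these contrasts did not pass (adjusted p = 0.269 and 0.269). Set against single times, ZT6 differed from ZT0 in 2 genes (0.0292%; 640 at an unadjusted p under 0.05, 9.35%), from ZT12 in 0 (164 at an unadjusted p under 0.05, 2.40%) and from ZT18, the only time in the dark, in 46, of which 16 (0.234%) were higher and 30 (0.438%) lower at ZT6 (1140 at an unadjusted p under 0.05, 16.7%).

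**Figure D5:**
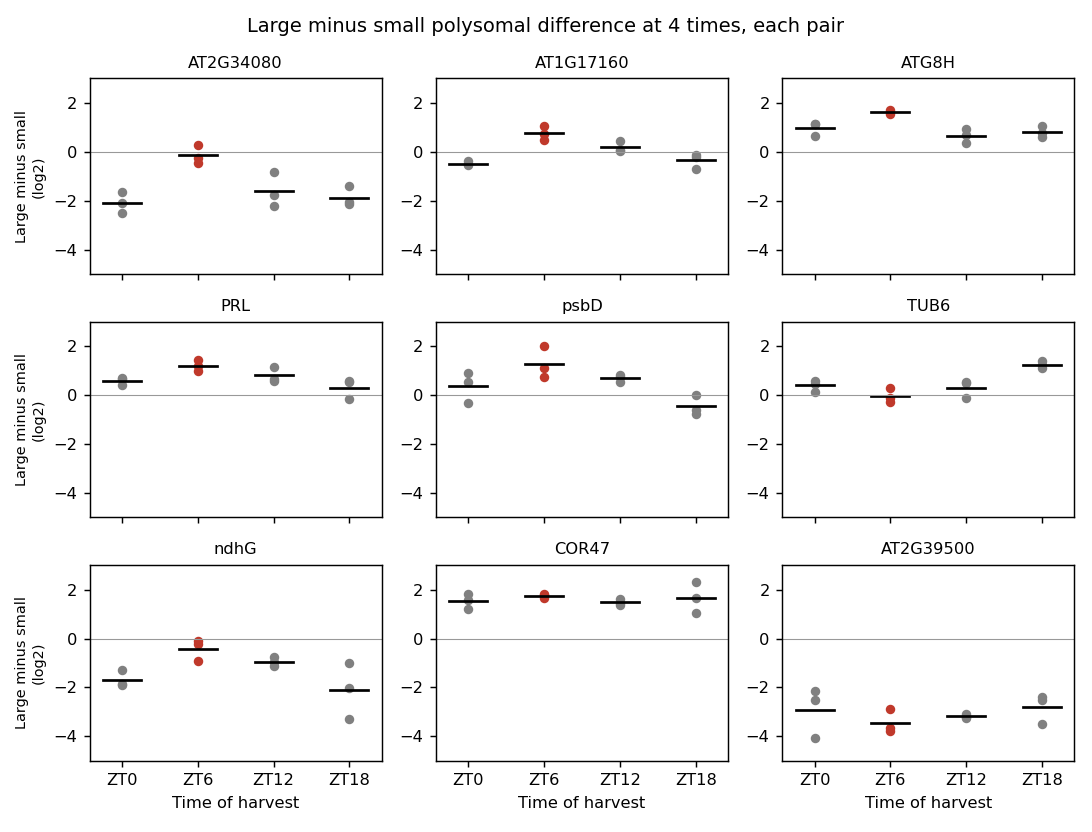
Large minus small polysomal difference (log2, vertical axis) of 9 genes at ZT0, ZT6, ZT12 and ZT18, each point 1 pair of arrays and each bar the mean of 3 pairs, with ZT6 in red. AT2G34080 lies near 0 at ZT6 and below -1 on average at the other times, whereas COR47 and AT2G39500 keep their side at all 4 times.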

How the data were processed

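RNA of polysome fractions was measured on Affymetrix arrays with oligo(dT)-primed labelling, per the labels' protocols. The deposited values are log2 levels per probe set. Per the submitters' processing notes, the authors used GCRMA, affy 1.42.3 and R 3.1; the genome build is not given in the sources used here. There is no read depth for arrays; precision is limited by how many there are.

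Of 22810 probe sets (64 controls), GEO's platform table gives 13513 to 1 gene and 503 to several and does not list 8730. Genes with a single-gene probe set and a mean of 4 (log2) or more across all 36 arrays were tested, by their brightest probe set: 6846 of 13356, of which 6823 were matched in the TAIR10.1 gene table and 987 carry a symbol. One limma fit (limma 3.58.1, R 4.3.3) of all 36 arrays had a term for each time and fraction. Each time and replicate number was a fixed block (16 residual df). The fractions of a block were taken as one extract, which the titles do not state. Deviations of large and small polysomal values from their group means at ZT6 correlated at 0.42, 0.29 and 0.25 within a number. Between numbers they correlated at -0.29 to -0.005. Deviations of 3 arrays from their mean sum to 0, so these values are tied to each other. They do not show whether a number stands for 1 extract. The fit was tested on simulated data.

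Named genes were drawn from several sets, and not every gene of these sets is named. A first set held the 10 that passed with the largest difference on each side and the same direction in 3 of 3 pairs. The 12 such genes on each side with a symbol formed another. Further sets were the genes called between times, the members of short lists, 3 in each direction of longer ones, and the extremes by span. The further members of the ATG, LSM, VPS and PRA1 families were named after their values had been seen. Members and lists were chosen with earlier results of these data known. The list of cytosolic ribosomal proteins, the symbol families and gene span, which replaced the planned protein length, were chosen after seeing the data. Alternatives were the block, normalisation, filter, probe-set choice, variance model and leaving out each replicate. Leaving out a replicate number removed its ZT6 arrays only. The arrays of that number at ZT0, ZT12 and ZT18 stayed in the fit.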

Additional observations from a re-analysis of the deposited data

Results flagged for a closer look

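Some genes had a large minus small polysomal difference at ZT6 that was unlike the difference at another time, by an interaction contrast of the same limma fit with an adjusted p under 0.05. AT2G34080, dim at ZT6 with means of 3.99 in small and 3.86 in large polysomal RNA, exceeded the mean of the other times by 1.72. It exceeded ZT0 by 1.94 and ZT18 by 1.74. AT1G17160 exceeded the mean of the other times by 0.98, ZT0 by 1.24 and ZT18 by 1.11. The remaining contrasts were against ZT18, the dark time. Given here are only those of genes already named, out of 16 genes called higher and 30 lower. Adjusted p was 0.0393 for psbD and TUB6 and 0.0448 for ndhG (limma), near the threshold. ndhG was dim at ZT6, with means of 4.27 in small and 3.85 in large polysomal RNA. How these contrasts hold in the alternative fits is not given. The beta-tubulin gene TUB6 was higher in large polysomes at ZT18, and its ZT6 minus ZT18 contrast was -1.28. The autophagy gene ATG8B had a contrast of 1.04. The plastid genes psbD and ndhG had contrasts of 1.74 and 1.70, beside a median of -0.68 for all plastid-encoded genes at ZT6 and -1.59 at ZT18.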

How the results depend on the processing

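With the replicate block removed, 22 of 101 called genes named above lost their call. Of the 101, 19 did so without replicate 3, 17 without replicate 2 and 12 without replicate 1. The number was 10 with no filter on dim genes, 7 with a random block, 2 with the ZT6 arrays alone and 1 with median centring. None of those refitted changed direction under these alternatives or under cyclic loess and a trended robust variance (101 each), the ZT6 filter (98 refitted) or averaged probe sets (100 refitted); the causes of lost calls were not tested. Replicate block: without it plastid-encoded genes had 0 higher and 1 lower (random block 0 and 10), conserved-peptide upstream open reading frame genes 1 and 4, UDP-glycosyltransferases 2 higher, the contrast of ZT6 with other times 0 genes, and mitochondrion-encoded, expansin, NDH complex and Calvin-Benson genes 0 called; the clock list fell from 2 to 1 and bZIP factors from 1 to 0 higher. No filter gave 6 higher and 3 lower in that contrast, a span rho of 0.10, 1 plastid gene and 3 translation factors higher, and medians of 0.014 for UDP-glycosyltransferases and 0.00 for defensins and RALF peptides. The ZT6 filter gave 1 and 1 in the contrast. Median centring gave medians of 0.73 (chlorophyll), 1.56 (cold) and 0.53 (SCPL), and 4 conserved-peptide genes lower; the share of calls that were higher was 50.5%, against 44.8%. Cyclic loess gave 1.59 for the cold genes and turned the ribosomal protein median to 0.039. Translation factors had 2 lower with a random block, averaged probe sets, a trended variance or ZT6 arrays alone. Leaving out a replicate gave 789 to 1067 genes higher, 0 to 1 in the contrast, ribosomal proteins 9 to 14 higher and 10 to 21 lower, plastid genes 1 to 3 higher, conserved-peptide genes 0 to 2 higher and 3 to 5 lower, translation factors 2 to 5 higher, proteasome 2 to 4, ATG 3 to 6, SCPL 3 to 5 (median 0.43 to 0.56), and UDP-glycosyltransferases 3 to 7 higher and 1 to 2 lower. Genes that did not pass changed sign: HEME1 (-0.11 to 0.078 without a replicate), ATG8C (0.050 with median centring, 0.096 with loess, -0.15 to 0.087 without a replicate), TUB6 (0.026, 0.0058 and -0.21 to 0.092), LHCB4.2 (0.0082 and 0.12 with median centring and loess), LHCB4.1 (0.13 with loess) and AT2G34080 (-0.34 to 0.019 without a replicate).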
